A study of Homo sapiens with 6 samples.

Results

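SR proteins, heterogeneous nuclear ribonucleoproteins (hnRNPs) and the other factors that choose splice sites were compared between HCT116 WT and METTL3-KO cells by RNA-seq. The 53 genes were taken by symbol from the 56638 rows of the count tables and fall into 6 roles, namely 12 SR proteins, 6 SR protein kinases, 16 hnRNPs, 5 PTB or PCB proteins, 5 factors of the branch point and 3′ splice site, and 9 other regulators. HCT116 is an established human colorectal carcinoma line. The WT group held 3 samples of wild type cells and the METTL3-KO group held 3 samples of cells in which the m6A methyltransferase gene METTL3 had been cut with CRISPR/Cas9, and both groups were grown in the same serum-containing medium at passage 16-19. According to the study's methods the knockout came from lentiviral CRISPR, puromycin selection and limited dilution, which gave a monoclonal line, so the knockout cannot be told apart from other features of that clone. The labels do not say that replicates were separate cultures, so the p-values measure the spread between these samples, which may be technical.

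An SR protein carries 1 or more RNA recognition motifs and a tail rich in arginine and serine, binds exonic enhancers, and helps the U2AF dimer and the U1 particle to define an exon. Many hnRNPs bind silencers or intronic elements and oppose SR proteins at the same exons, so the balance between both families sets the inclusion of many alternative exons. SRPK and CLK kinases phosphorylate the SR tail and control where SR proteins reside in the nucleus. Many SR and hnRNP genes also restrain their own level by splicing a poison exon into their mRNA, which sends it to nonsense-mediated decay. A count per gene sums all isoforms, so the splicing of these genes was not measured here.

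METTL3 itself was lower in the samples labelled METTL3-KO. In CPM, which are counts scaled to a common library size, it stood at 30.6, 30.2 and 29.2 in the WT samples and at 7.26, 7.69 and 6.89 in the METTL3-KO samples. The log2 fold change was -2.04 (SE 0.0906). A lower RNA level does not tell a cut gene from a knockdown. The guide's target lies in coding exon 3 of METTL3 at chr14:21971545-21971567 of GRCh37, on the minus strand, and is shown because it defines the knockout, with the PAM in capitals.
METTL3 target: ggtgctgtggcagaaaagaaGGG

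Depth ran from 20936091 to 30142144 counts on genes per sample. WT replicate 3 and METTL3-KO replicate 3 stood apart from the other 2 samples of their groups. Their chi-square per gene against those samples was 8.32 to 23.1, where the first 2 replicates of a group differed from each other by 2.34 and 2.58. Their deviations from the group mean followed transcript length in opposite directions, with Spearman's rho of 0.66 in WT replicate 3 and -0.60 in METTL3-KO replicate 3 across 10033 genes, which are not independent replicates. The part of this difference in the results was not tested beyond leaving these samples out and fitting a correction for transcript length and GC content. The 8 epithelial markers summed to 6853 to 8181 CPM in WT and 9295 to 10239 CPM in METTL3-KO samples. Of the 8, 4 (CDH1, KRT8, KRT19 and VIL1) passed the test as higher, against 13.3% of all tested genes. EPCAM, KRT18, LGALS4 and CDX2 did not pass. The colonic factor CDX2 was low in both groups, at 5.49 to 8.85 CPM. The summed endothelial markers were at most 0.185 CPM, and the fibroblast or muscle markers summed to 5.30 to 8.11 CPM. The leukocyte list summed to 1032 to 1041 CPM in WT and 664 to 744 CPM in METTL3-KO, almost all of it LYZ, while CD14 was at 5.11 to 9.95 CPM, and PTPRC and CD3E were too low to be tested. The part of these markers in the results below was not tested. Both groups come from the same cell line, and in its bulk RNA fewer cells in a given state and less RNA per cell cannot be told apart.

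All but 1 of the 53 genes could be tested. QKI, a STAR family regulator, had 1, 0 and 0 counts in WT and 1, 1 and 0 counts in METTL3-KO samples and was filtered out. In WT cells the levels per transcript length, in CPM per kb of the canonical transcript, spanned a wide range. U2AF2, the large subunit of the U2AF dimer that binds the polypyrimidine tract, stood highest with a WT mean of 279 CPM per kb, followed by HNRNPF with 251, HNRNPK with 230 and HNRNPH1 with 228. The sample values of HNRNPK and HNRNPH1 overlapped. At the low end were RBFOX2 with 10.8, PTBP2 with 9.52 and CLK4 with 8.29 CPM per kb. In METTL3-KO cells U2AF2 fell to a mean of 191 CPM per kb and stood below HNRNPF with 257 and HNRNPK with 215, while its sample values overlapped those of HNRNPH1 with a mean of 196.

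**Figure D1:**
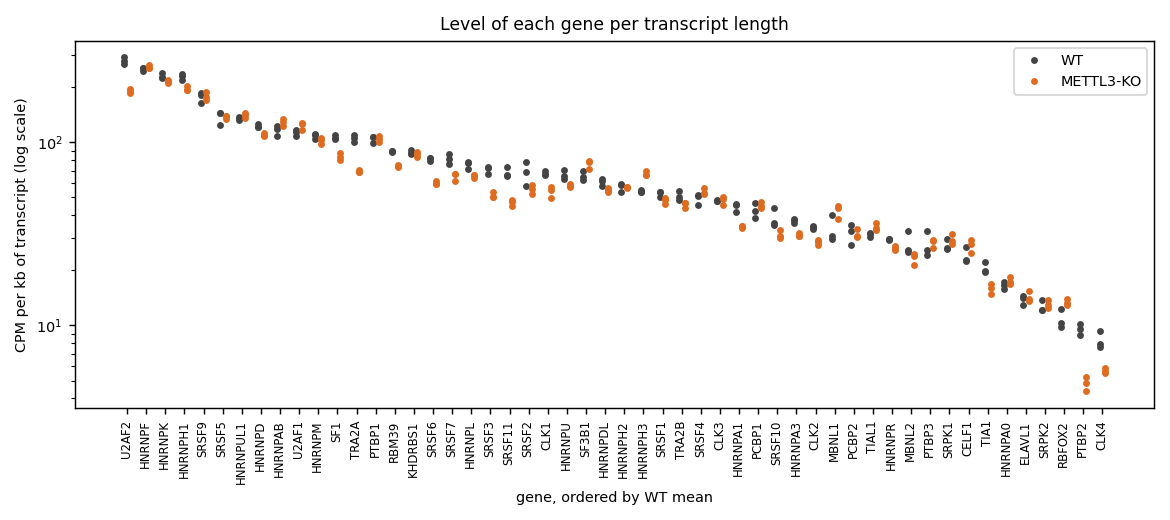
Level of the 52 tested genes in each sample, in CPM per kb of the canonical transcript on a log scale, with genes ordered by their WT mean and 1 point per sample. The highest WT mean is U2AF2 at 279 and the lowest is CLK4 at 8.29 CPM per kb, and the METTL3-KO points of U2AF2, TRA2A, PTBP2 and CLK4 lie below their WT points.

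After METTL3 knockout, more of the splicing regulator mRNAs were called lower than higher. At an adjusted p under 0.05 in edgeR's quasi-likelihood test, 4 of the 52 genes were higher (7.69%) and 18 were lower (34.6%), against 13.3% higher and 13.2% lower among all 22452 tested genes. In either direction 42.3% of the genes passed, against 26.5% of all tested genes. The 52 genes are well expressed, which makes a call more likely, so they were also set beside the 8432 tested genes that were at least as abundant as the least abundant of them. Among those, 20.9% were higher and 20.2% were lower. The median log2 fold change of the 52 genes was -0.11, beside -0.022 over all tested genes and 0.00087 over the abundant genes. The groups did not overlap in 32 of the 52 genes, 6 of them higher and 26 lower in METTL3-KO, where 40.9% of all tested genes did not overlap, 20.2% being higher and 20.7% lower. Shares without overlap, and those below without both samples numbered 3, were not set beside the abundant genes. With both samples numbered 3 left out, 7 genes were higher and 27 lower, where calls rose over all tested genes too, to 21.4% higher and 22.7% lower. These included each of the 22 genes called with all samples, in the same direction. The count of higher genes was 1 without WT replicate 1, WT replicate 2, METTL3-KO replicate 1 or METTL3-KO replicate 2.

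The 53 genes together took 1.18% to 1.24% of the counts on genes in WT samples and 1.09% to 1.13% in METTL3-KO samples. The SR protein genes held 0.269% to 0.278% of the counts in WT and 0.224% to 0.230% in METTL3-KO. The hnRNP genes held 0.505% to 0.515% and 0.476% to 0.489%. For each of these shares the highest METTL3-KO sample was below the lowest WT sample.

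**Figure D2:**
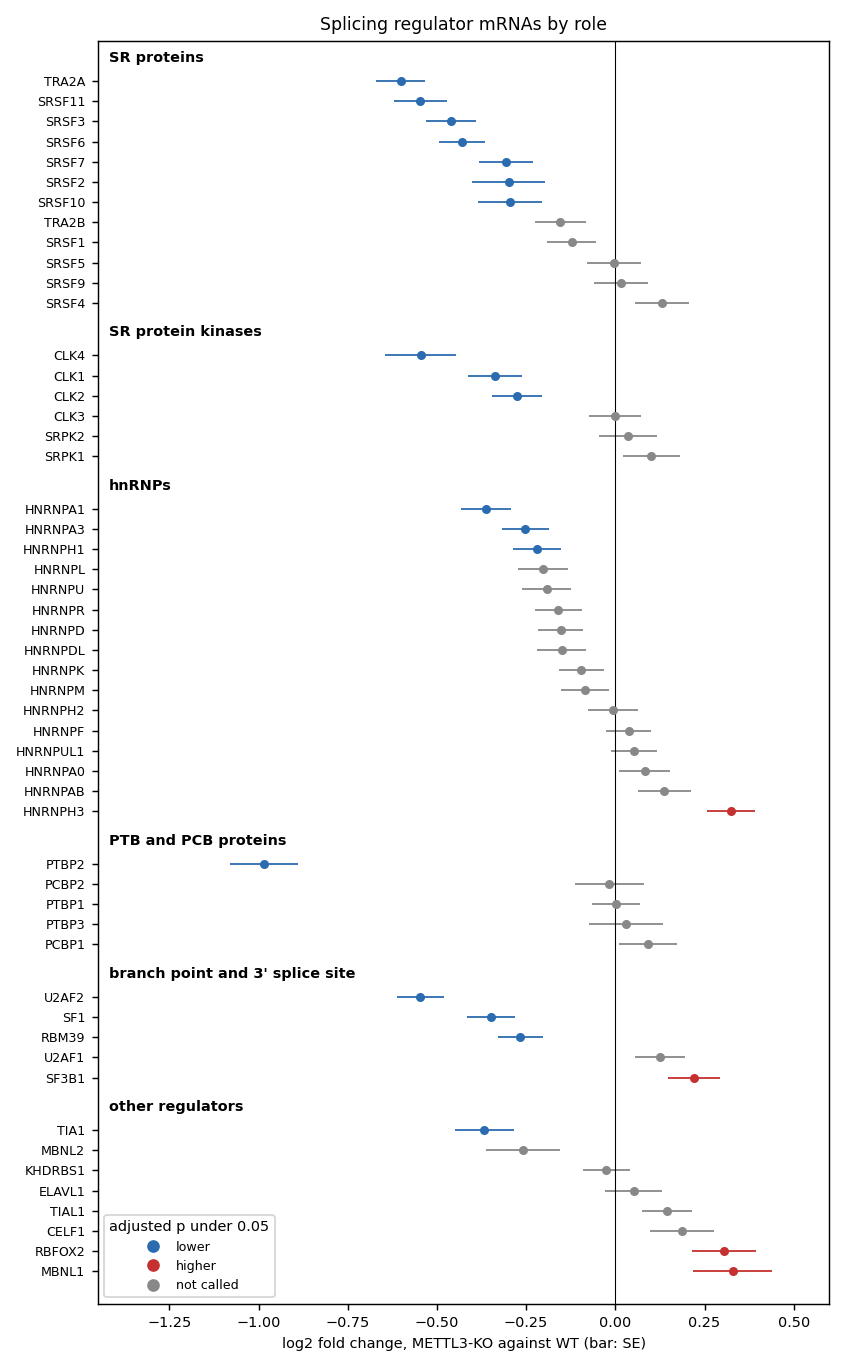
Log2 fold change of each tested gene in METTL3-KO against WT cells, with bars of 1 SE, grouped by role. In edgeR's test at a threshold of 0.05 for the adjusted p, blue points were lower and red points higher, and grey points did not pass. The SR protein group holds 7 lower genes and no higher gene, and PTBP2 lies farthest from 0 at -0.98.

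Of the 12 SR protein genes, 7 were lower (58.3%) and none was higher, against 13.2% and 13.3% of all tested genes. Among the abundant genes 20.2% were lower and 20.9% higher. The median log2 fold change was -0.30, and 10 of 12 were below 0, as were 11630 of all 22452 tested genes. The count of lower genes was 4 without METTL3-KO replicate 2 and 8 without both samples numbered 3. In that last fit 10 of 16 hnRNP genes were also lower, against 22.7% of all genes tested. TRA2A, SRSF11, SRSF3 and SRSF6 fell most. TRA2A encodes a Transformer-2 protein that binds purine-rich exonic enhancers, and its level was 195, 179 and 189 CPM in WT samples and 127, 122 and 122 CPM in METTL3-KO samples. All METTL3-KO samples lay well below all WT samples, and the log2 fold change was -0.60 (SE 0.0689, edgeR adjusted p = 6.9e-05), so the level fell by 34.1%. SRSF11, an SR-related protein found with U2AF at 3′ splice sites, was at 263, 257 and 291 CPM in WT samples and at 187, 191 and 177 CPM in METTL3-KO samples. The groups were separate again, with a log2 fold change of -0.55 (SE 0.0738, edgeR adjusted p = 0.000215).

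SRSF3, the smallest classical SR protein, which also links splicing to mRNA export and restrains itself through a poison exon, was at 309, 306 and 283 CPM in WT samples and at 214, 213 and 227 CPM in METTL3-KO samples. The lowest WT sample was well above the highest METTL3-KO sample, and the log2 fold change was -0.46 (SE 0.0696, edgeR adjusted p = 0.000465). SRSF6, an SR protein with a pair of RNA recognition motifs, was at 346, 355 and 356 CPM in WT samples and at 269, 258 and 258 CPM in METTL3-KO samples. Its 3 WT samples were nearly level and none came near a METTL3-KO sample, with a log2 fold change of -0.43 (SE 0.0645, edgeR adjusted p = 0.000444). These 4 genes stayed lower in each of the 6 fits that left out 1 sample.

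SRSF7, SRSF2 and SRSF10 were also lower, by -0.31, -0.30 and -0.29 on the log2 scale, but each call depended on single samples. SRSF7, which binds export factors as SRSF3 does, lost its call without WT replicate 1 or METTL3-KO replicate 2, with edgeR adjusted p of 0.0528 and 0.0767. SRSF2, whose 129.9, 147 and 109 CPM in WT overlapped with 105, 99.0 and 109.7 CPM in METTL3-KO samples, kept its call only without WT replicate 3. In the other 5 fits its edgeR adjusted p ran from 0.0634 to 0.225 and its log2 fold change over all 6 fits from -0.40 to -0.18. Of the exon bases of SRSF2, 27.7% are shared with MFSD11 on the opposite strand or with a microRNA gene. SRSF10, which acts as a repressor when it is dephosphorylated, lost its call without METTL3-KO replicate 1, 2 or 3, with edgeR adjusted p from 0.0576 to 0.114. Its log2 fold change was -0.18 without WT replicate 3 and -0.16 without both samples numbered 3. Of the remaining genes, TRA2B (-0.15), SRSF1 (-0.12), SRSF5 (-0.0045), SRSF9 (0.015) and SRSF4 (0.13) did not pass the test. The 95% interval of SRSF5 ran from -0.15 to 0.14 and that of SRSF9 from -0.13 to 0.16 on the log2 scale. SRSF9 shares 46.7% and SRSF1 35.1% of its exon bases with other genes.

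Of the 6 SR protein kinases, CLK4, CLK1 and CLK2 were lower (50%) and CLK3, SRPK1 and SRPK2 were not called. The share of lower genes was 13.2% over all tested genes and 20.2% over the abundant genes. CLK4, a nuclear dual-specificity kinase of SR proteins, was at 19.9, 19.0 and 23.4 CPM in WT samples and at 14.2, 14.6 and 13.8 CPM in METTL3-KO samples. Each METTL3-KO sample was below each WT sample, with a log2 fold change of -0.55 (SE 0.0999, edgeR adjusted p = 0.00167). CLK1, whose transcripts are partly kept in the nucleus with retained introns, was at 122, 124 and 129 CPM in WT samples and at 101, 105 and 91.1 CPM in METTL3-KO samples, and fell by 0.34 on the log2 scale (SE 0.0756, edgeR adjusted p = 0.00596). CLK2 was at 74.0, 75.6 and 72.5 CPM in WT samples and at 59.3, 61.2 and 63.0 CPM in METTL3-KO samples. These values did not overlap either, and the log2 fold change of CLK2 was -0.28 (edgeR adjusted p = 0.0119), a call that was lost without WT replicate 2 or METTL3-KO replicate 1 or 2, with adjusted p from 0.0543 to 0.0702. CLK3 had a log2 fold change of -0.0011 with a 95% interval of -0.14 to 0.14. The mainly cytoplasmic kinases SRPK1 and SRPK2 had log2 fold changes of 0.10 and 0.036 and overlapping groups. SRPK1 shares 28.1% of its exon bases with LHFPL5 on the opposite strand.

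**Figure D3:**
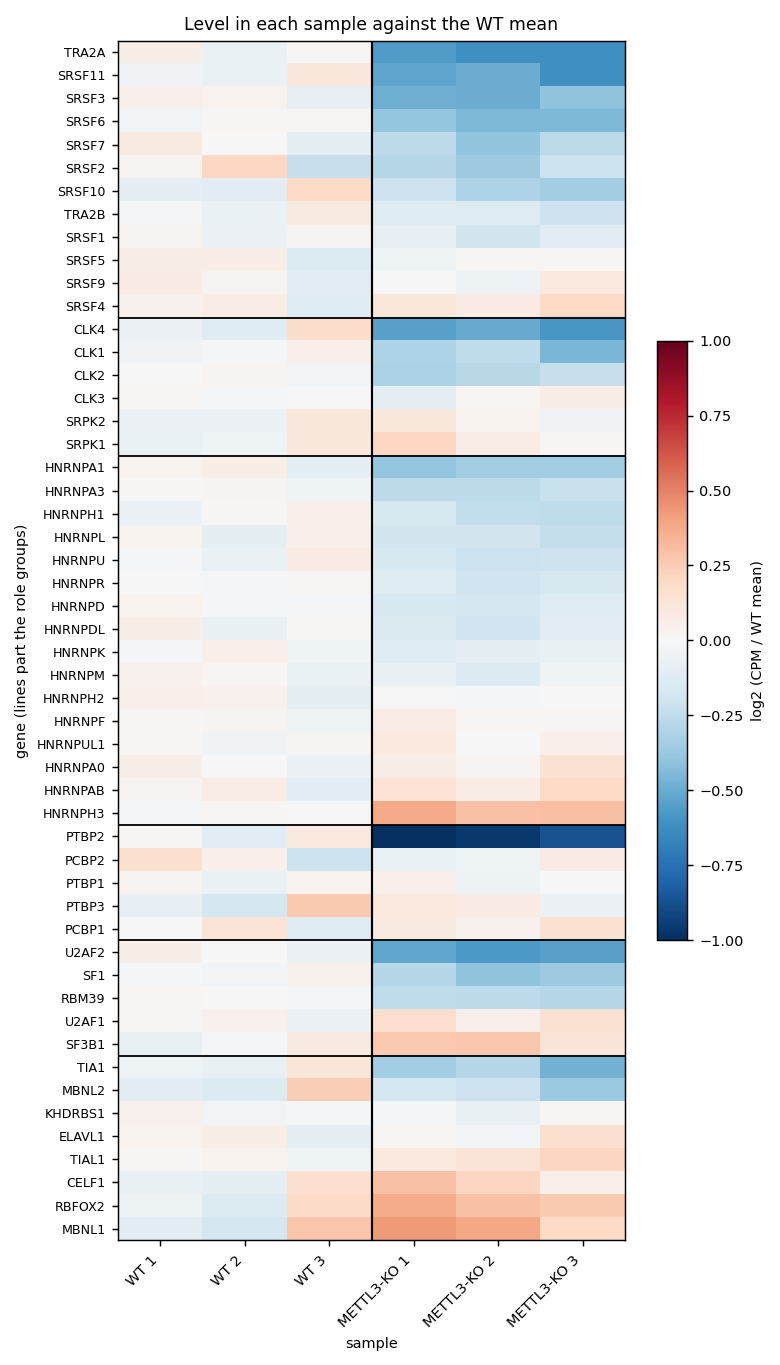
Level of each tested gene in each sample as log2 of its CPM over the WT mean, with WT samples left and METTL3-KO samples right of the vertical line and horizontal lines between the roles. The METTL3-KO columns are blue for the upper SR proteins, CLK4, CLK1, CLK2, PTBP2 and U2AF2, and red for HNRNPH3, while WT replicate 3 is the darkest red WT column for PTBP3, MBNL1 and MBNL2.

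Of the 16 listed hnRNP genes, 3 were lower (18.8%), 1 was higher and 12 did not pass. The share of lower genes in this list was near the 20.2% of the abundant genes. The median log2 fold change of the list was -0.12, with 11 of 16 below 0, beside 11630 of all 22452 tested genes. The list leaves out HNRNPA2B1 (-0.21, edgeR adjusted p = 0.029) and HNRNPC (-0.25, edgeR adjusted p = 0.0207), which were called lower. HNRNPLL and HNRNPUL2, also outside the list, were called lower too, while SYNCRIP (0.083) and RALY (0.16) were not called. HNRNPA1, the best known silencer-binding hnRNP, was at 170, 173 and 156 CPM in WT samples and at 127, 130 and 131 CPM in METTL3-KO samples. All WT samples were above all METTL3-KO samples, with a log2 fold change of -0.36 (SE 0.0708, edgeR adjusted p = 0.0025). The annotation holds 74 named pseudogenes of HNRNPA1 and reads that fit several places were not counted, so its level is uncertain. HNRNPA3, a close relative of HNRNPA1, was at 214, 217 and 206 CPM in WT samples and at 177, 177 and 181 CPM in METTL3-KO samples, and its log2 fold change was -0.25 (edgeR adjusted p = 0.0138). HNRNPA3 has 16 named pseudogenes, shares 54.8% of its exon bases with other genes, mainly NFE2L2 on the opposite strand, and lost its call without WT replicate 1 or 2 or METTL3-KO replicate 1 or 2, with adjusted p from 0.0564 to 0.0742.

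HNRNPH1 and HNRNPH3, of the family that binds G-rich elements, went opposite ways. HNRNPH3 was at 126, 128 and 127 CPM in WT samples and at 165, 156 and 156 CPM in METTL3-KO samples. It was the only hnRNP gene called higher, with separate groups and a log2 fold change of 0.33 (SE 0.067, edgeR adjusted p = 0.00353), and this call held in each fit that left out 1 sample. HNRNPH1 fell by 0.22 on the log2 scale (edgeR adjusted p = 0.0289), and its call was kept only without WT replicate 3, the other 5 fits giving adjusted p from 0.0526 to 0.132. HNRNPH2 and HNRNPF, the remaining members of this family, had log2 fold changes of -0.0059 (95% interval -0.14 to 0.13) and 0.037 (95% interval -0.087 to 0.16).

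Just past the threshold were HNRNPL, which binds CA repeats, with a log2 fold change of -0.20 and an edgeR adjusted p of 0.0505, and HNRNPU, a nuclear scaffold protein, with -0.19 and 0.0564. HNRNPR, HNRNPD, HNRNPDL, HNRNPK and HNRNPM had log2 fold changes from -0.16 to -0.086, and HNRNPUL1, HNRNPA0 and HNRNPAB from 0.051 to 0.14. In 9 of the 16 hnRNP genes every METTL3-KO sample was below every WT sample, as in 20.7% of all tested genes. With both samples numbered 3 left out 10 of 16 were called lower, against 22.7% of all genes tested in that fit. The count of lower hnRNP genes was 1 without WT replicate 1, WT replicate 2, METTL3-KO replicate 1 or METTL3-KO replicate 2, and 5 without WT replicate 3.

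Set side by side in each sample, the SR protein genes lay lower against the hnRNP genes in METTL3-KO than in WT. The median SR protein gene, as log2 CPM over its WT mean, was at 0.039, 0.0065 and -0.033 in WT samples and at -0.24, -0.34 and -0.24 in METTL3-KO samples. The median hnRNP gene was at 0.023, 0.014 and -0.031 in WT samples and at -0.12, -0.16 and -0.093 in METTL3-KO samples. The SR median minus the hnRNP median was 0.016, -0.0072 and -0.0024 in WT samples and -0.12, -0.18 and -0.15 in METTL3-KO samples, and the groups did not overlap. This is a description of these lists and no test was made of it. It depends on which genes are listed, since HNRNPA2B1 and HNRNPC, called lower, and SRSF8 (0.14, not called) are left out.

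PTBP2 showed the largest change of the 52 tested genes. PTBP2 is the paralog of the polypyrimidine tract binding protein PTBP1 that is best known from neurons, and in non-neuronal cells PTBP1 represses it by skipping an exon of its mRNA. Its level was 31.7, 29.3 and 33.8 CPM in WT samples and 14.6, 16.2 and 17.3 CPM in METTL3-KO samples. All METTL3-KO samples were far below all WT samples, with a log2 fold change of -0.98 (SE 0.0954, edgeR adjusted p = 2.17e-05), so the level fell by 49.4%. PTBP1 was at 342, 319 and 343 CPM in WT samples and at 346, 323 and 336 CPM in METTL3-KO samples, and its log2 fold change was 0.0018 with a 95% interval of -0.13 to 0.13.

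PTBP3 was at 186, 175 and 236 CPM in WT samples and at 211, 209 and 190 CPM in METTL3-KO samples. WT replicate 3 was the highest and METTL3-KO replicate 3 the lowest of its group, and the log2 fold change of 0.031 was not called. With both of these samples left out PTBP3 was called higher, with a log2 fold change of 0.21 (edgeR adjusted p = 2.2e-05). The poly(C)-binding protein PCBP1 was at 72.9, 80.1 and 67.0 CPM in WT samples and at 77.9, 75.4 and 81.1 CPM in METTL3-KO samples, with a log2 fold change of 0.092. This value was 0.034 without WT replicate 3 and 0.17 without WT replicate 2, and it was not called in any fit. Its relative PCBP2 had a log2 fold change of -0.017, and both overlapped between the groups. PCBP1 shares 73.2% of its exon bases with PCBP1-AS1 on the opposite strand, and PCBP2 shares 32.7% with other genes, so their levels are uncertain.

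Of the 5 factors that recognise the branch point and the 3′ splice site, 3 were lower (60%) and 1 was higher (20%). Over all tested genes 13.2% were lower and 13.3% higher, and over the abundant genes 20.2% and 20.9%. U2AF2 was at 624, 595 and 574 CPM in WT samples and at 417, 401 and 410 CPM in METTL3-KO samples. The lowest WT sample was far above the highest METTL3-KO sample, with a log2 fold change of -0.55 (SE 0.0659, edgeR adjusted p = 9.81e-05), so the level fell by 31.6%. SF1, which binds the branch point before the U2 particle does, was at 347, 342 and 359 CPM in WT samples and at 287, 264 and 271 CPM in METTL3-KO samples, with separate groups and a log2 fold change of -0.35 (SE 0.0675, edgeR adjusted p = 0.00235).

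RBM39, a U2AF-related protein, was at 456, 451 and 448 CPM in WT samples and at 379, 377 and 370 CPM in METTL3-KO samples. Each group was nearly level within itself, and RBM39 fell by 0.27 on the log2 scale (SE 0.0627, edgeR adjusted p = 0.00794). U2AF2, SF1 and RBM39 stayed lower in each fit that left out 1 sample. U2AF1, the small U2AF subunit that reads the AG at the end of the intron, had means of 107 ± 3.79 CPM in WT and 116 ± 5.31 CPM in METTL3-KO samples (SD, n = 3 each), and its log2 fold change of 0.13 did not pass the test (edgeR adjusted p = 0.228). SF3B1, the U2 component at the branch point, was higher by 0.22 on the log2 scale (edgeR adjusted p = 0.0424). This call was lost without WT replicate 1 or 2 or METTL3-KO replicate 1 or 2, with adjusted p from 0.0993 to 0.167.

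The other regulators moved in both directions. TIA1, which binds U-rich sequence beside weak 5′ splice sites, was at 92.1, 90.3 and 103 CPM in WT samples and at 74.6, 78.1 and 68.6 CPM in METTL3-KO samples. Its groups were separate, with a log2 fold change of -0.37 (SE 0.0817, edgeR adjusted p = 0.00562), and it was called in each fit that left out 1 sample. RBFOX2, which binds UGCAUG near alternative exons and is a marker regulator of epithelial and mesenchymal splicing, was at 74.7, 70.6 and 88.3 CPM in WT samples and at 100.3, 95.2 and 92.9 CPM in METTL3-KO samples. It was higher in METTL3-KO in all samples, with a log2 fold change of 0.30 (SE 0.0894, edgeR adjusted p = 0.025).

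MBNL1, the muscleblind protein that is sequestered in myotonic dystrophy, was at 169.9, 163 and 222 CPM in WT samples and at 247, 240.1 and 209.8 CPM in METTL3-KO samples. WT replicate 3 lay above METTL3-KO replicate 3, so the groups overlapped, and the log2 fold change was 0.33 (SE 0.112, edgeR adjusted p = 0.0481). With both of these samples left out it was 0.54. The calls of RBFOX2 and MBNL1 were lost without WT replicate 1 or 2 or METTL3-KO replicate 1 or 2, with edgeR adjusted p from 0.0711 to 0.105 for RBFOX2 and from 0.146 to 0.167 for MBNL1. MBNL2 (-0.26), KHDRBS1 (-0.025), ELAVL1 (0.051), TIAL1 (0.14) and CELF1 (0.19) did not pass the test.

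Related genes were compared as ratios of their counts within a sample, which do not depend on library scaling. A count ratio is not a ratio of mRNA molecules, since transcripts differ in length. In 7 of 10 pairs the ratios of both groups did not overlap. No such share was computed for other gene pairs, and 40.9% of all tested genes taken singly did not overlap. The pairs were chosen with earlier results known. Of the 7 pairs, all but SRPK1 to SRPK2 hold a gene already called above. With 3 samples against 3 the two-sided exact permutation test cannot go below 0.1, which all 7 pairs reached, with an adjusted p of 0.143 over the 10 pairs, so no pair could pass 0.05. The ratio of PTBP1 to PTBP2 was 10.8, 10.9 and 10.2 in WT samples and 23.8, 19.97 and 19.5 in METTL3-KO samples. The mean rose from 10.6 to 21.0, the widest gap of the 10 pairs.

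U2AF1 to U2AF2, the 2 subunits of 1 dimer, had a count ratio of 0.172, 0.185 and 0.179 in WT samples and of 0.288, 0.275 and 0.290 in METTL3-KO samples. MBNL1 to MBNL2 was at 1.42, 1.40 and 1.45 in WT samples and at 2.16, 2.15 and 2.10 in METTL3-KO samples. Both pairs were tight within each group, and for MBNL1 to MBNL2 this held although the level of MBNL1 alone overlapped between the groups.

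TRA2A to TRA2B moved the other way, from a mean of 0.884 to 0.648, as did TIA1 to TIAL1, from 0.796 to 0.558, and HNRNPH1 to HNRNPF, from 0.795 to 0.665. SRPK1 to SRPK2 had separate groups with a small gap, 2.55 in WT and 2.66 in METTL3-KO. The pairs HNRNPD and HNRNPDL, PTBP1 and PTBP3, and PCBP1 and PCBP2 overlapped between the groups.

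**Figure D4:**
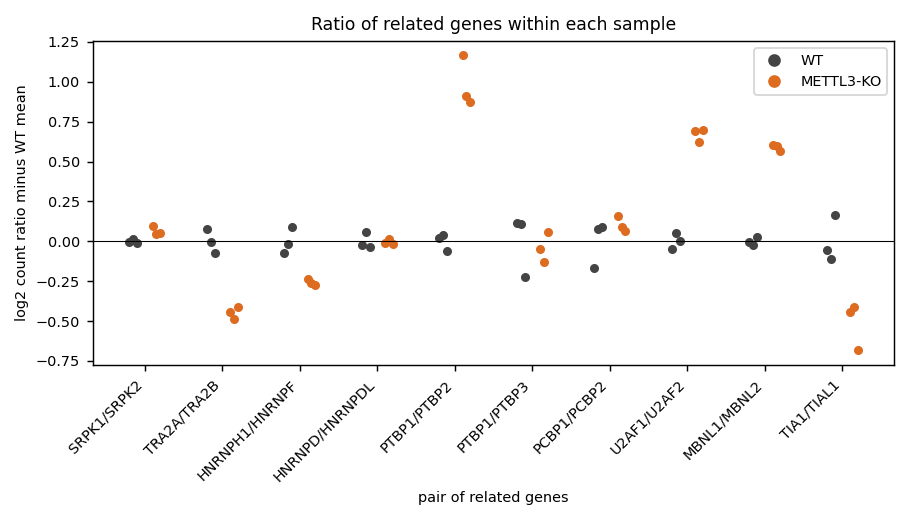
Log2 of the count ratio of 10 pairs of related genes in each sample, minus the WT mean of that pair, with WT samples in grey and METTL3-KO samples in orange. The METTL3-KO points lie above the WT points for PTBP1/PTBP2, U2AF1/U2AF2, MBNL1/MBNL2 and, by a small gap, SRPK1/SRPK2, and below them for TRA2A/TRA2B, HNRNPH1/HNRNPF and TIA1/TIAL1.

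The other genes of the splicing machinery were taken from 7 lists with 131 genes, of which 122 were tested. Of these, 13 were higher and 28 were lower, 33.6% in all against 26.5% of all tested genes, with a median log2 fold change of -0.058. Higher calls made up 10.7% of the 122 genes, below the 20.9% of the abundant genes. Lower calls made up 22.95%, near the 20.2% of the abundant genes. Some of the 122 genes were less abundant than any of the 52, and the separate lists below were set beside all tested genes only. Lower calls numbered 18 without WT replicate 2, 43 without WT replicate 3, 16 without METTL3-KO replicate 1 and 14 without METTL3-KO replicate 2, and higher calls 8 without METTL3-KO replicate 1. Without both samples numbered 3 the counts were 25 higher and 58 lower of the 122, where 21.4% of all genes tested in that fit were higher and 22.7% lower. The U1 and Sm protein list had 4 of 12 genes lower (33.3%) and none higher, against 13.2% and 13.3% of all tested genes. The Sm core proteins SNRPD1 (-0.46), SNRPE (-0.43) and SNRPD2 (-0.37) fell in log2 fold change. The calls of SNRPD2 and SNRPE were lost without WT replicate 1 or 2 or METTL3-KO replicate 1 or 2, with edgeR adjusted p from 0.0707 to 0.0922 for SNRPD2 and from 0.056 to 0.0767 for SNRPE.

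In the U2 particle, 5 of 14 genes were higher (35.7%) and 2 were lower (14.3%), against 13.3% and 13.2% of all tested genes. The SF3b subunits PHF5A (0.50) and SF3B2 (0.48) and the U2 protein SNRPB2 (0.45) rose in log2 fold change, beside SF3B1 above. In the U4/U6.U5 tri-snRNP, 7 of 22 genes were lower (31.8%) and 2 were higher (9.09%). PRPF3 (-0.68), a protein of the U4/U6 particle, SNRNP200 (-0.55), the helicase that unwinds U4 from U6, and USP39 (-0.44) fell.

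Of the catalytic-step proteins, 2 of 24 genes were higher and 2 were lower, 8.33% each, against 13.3% and 13.2% of all tested genes. CWC22 rose by 0.30 and CRNKL1 by 0.28, and CDC40 fell by 0.31, on the log2 scale. The call of CRNKL1 was lost without WT replicate 1 or 2 or METTL3-KO replicate 1 or 3, with edgeR adjusted p from 0.0516 to 0.086, and that of CDC40 without METTL3-KO replicate 1, 2 or 3, with adjusted p from 0.0573 to 0.0935. Of the minor spliceosome 1 of 9 genes was lower (11.1%), SNRNP25 with a log2 fold change of -0.48.

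Among 15 further SR-related genes 5 were lower (33.3%) and 1 was higher (6.67%), against 13.2% and 13.3% of all tested genes. RNPS1, a splicing activator of the exon junction complex, was at 79.5, 79.3 and 79.4 CPM in WT samples and at 44.8, 45.5 and 44.1 CPM in METTL3-KO samples. The samples of each group were nearly equal, and its log2 fold change of -0.83 (SE 0.0689, edgeR adjusted p = 8.03e-06) was larger in size than that of any SR protein gene above. CLASRP, a CLK4-associated protein, fell by 0.47 and SCAF1 rose by 0.36. Among 26 further hnRNP genes and regulators 7 were lower (26.9%) and 3 were higher (11.5%). HNRNPLL (-0.51), the lymphoid relative of HNRNPL, and HNRNPUL2 (-0.35) fell.

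**Figure D5:**
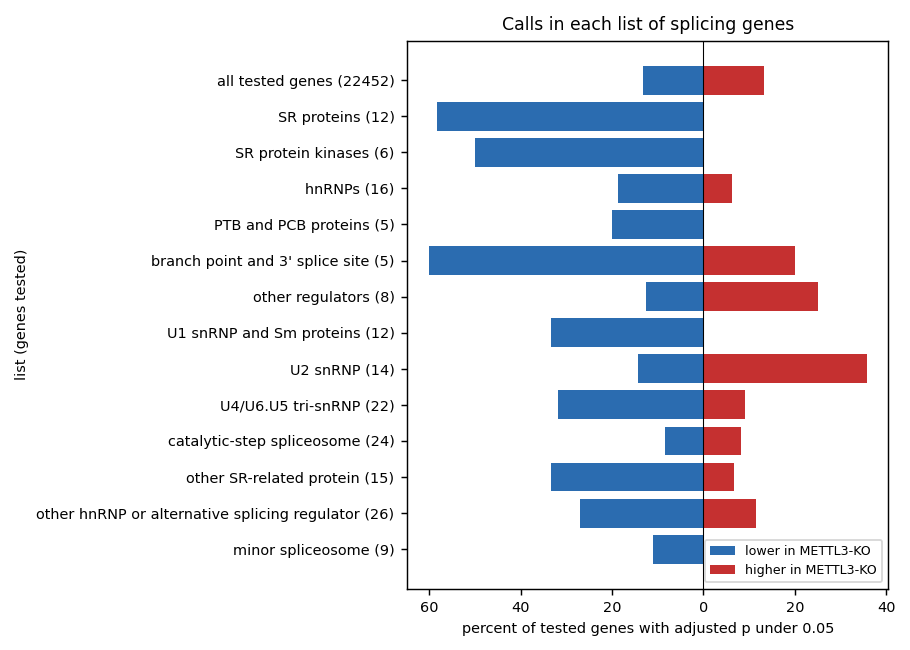
Percent of tested genes that edgeR's test called lower (blue, left) or higher (red, right) in METTL3-KO cells, for all tested genes, the 6 roles and the 7 further lists, with the number tested in brackets. All tested genes stand at 13.2% lower and 13.3% higher, SR proteins at 58.3% and 0%, hnRNPs at 18.8% and 6.25%, and the U2 snRNP list at 14.3% and 35.7%.

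The transcripts of these genes were also described by sequence. METTL3 methylates adenosines mostly within GGAC and related words, and the canonical transcripts of the 52 genes held a median of 2.60 GGAC words per kb, beside 3.62 in 10040 tested genes with a mean log2 CPM over 3. The SR protein genes had a median of 2.21 and the hnRNP genes of 2.93 words per kb. The 18 lower genes had a median of 2.35 and the 30 genes that did not pass 2.90 words per kb. U2AF2 had the highest density of the 52 genes, at 9.32, and TRA2B the lowest, at 0.957. The median GC content, taken from the longest transcript of each gene, was 41.5% for the 52 genes and 47.7% for the 10040 genes. A word is not a methylated site, and m6A itself was not analysed here.

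Promoters were read from RefSeq (GRCh38.p14), from 250 bases before to 50 bases after the transcription start, for 46 of the 53 genes. The GC box letters GGGCGG, searched on both strands like each word here, were in 71.7% of these promoters and in 44.6% of 27305 promoters, and the E-box CACGTG was in 23.9% and 7.43%. The CCAAT word was in 28.3% and 35.7%, and the TATAAA word in 10.9% and 12.0%. Of the 14 lower genes with a promoter, 11 held a GC box, 3 an E-box and 3 a TATAAA word, and of the 32 others 22, 8 and 2 did. These counts describe letters and are not sites of a factor. The 27305 promoters were not limited to expressed genes, while the genes described here are well expressed. The part of this in the differences was not tested.

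The promoters of 4 lower genes are shown because they differ in these words. Capitals mark the CCAAT, TATA, E-box and ETS words on either strand, the ETS word being CCGGAAG, and the GC box is left in lower case. SRSF3 at chr6:36594112-36594411 on the plus strand holds the CCAAT word on both strands and the TATA word. CLK4 at chr5:178627001-178627300 on the minus strand holds the E-box. U2AF2 at chr19:55654785-55655084 on the plus strand holds the ETS word, and PTBP2 at chr1:96722388-96722687 on the plus strand holds none of the words that capitals mark.
SRSF3 promoter: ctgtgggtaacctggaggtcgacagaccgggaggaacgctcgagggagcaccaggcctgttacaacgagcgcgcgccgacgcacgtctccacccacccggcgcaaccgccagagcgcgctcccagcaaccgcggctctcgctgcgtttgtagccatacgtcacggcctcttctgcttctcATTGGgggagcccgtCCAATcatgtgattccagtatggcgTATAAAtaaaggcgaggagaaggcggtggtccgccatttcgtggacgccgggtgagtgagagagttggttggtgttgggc
CLK4 promoter: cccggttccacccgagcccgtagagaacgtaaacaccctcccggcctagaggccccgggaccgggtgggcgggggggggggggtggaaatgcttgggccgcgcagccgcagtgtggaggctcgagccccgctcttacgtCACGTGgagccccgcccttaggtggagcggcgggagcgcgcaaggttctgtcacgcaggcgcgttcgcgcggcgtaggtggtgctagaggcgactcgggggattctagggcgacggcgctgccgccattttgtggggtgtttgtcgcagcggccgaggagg
U2AF2 promoter: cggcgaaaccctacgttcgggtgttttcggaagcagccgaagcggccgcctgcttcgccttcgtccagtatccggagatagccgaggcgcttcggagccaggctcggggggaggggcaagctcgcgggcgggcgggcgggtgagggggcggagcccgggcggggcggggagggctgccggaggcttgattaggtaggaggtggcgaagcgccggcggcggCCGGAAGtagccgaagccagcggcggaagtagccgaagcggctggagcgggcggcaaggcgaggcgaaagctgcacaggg
PTBP2 promoter: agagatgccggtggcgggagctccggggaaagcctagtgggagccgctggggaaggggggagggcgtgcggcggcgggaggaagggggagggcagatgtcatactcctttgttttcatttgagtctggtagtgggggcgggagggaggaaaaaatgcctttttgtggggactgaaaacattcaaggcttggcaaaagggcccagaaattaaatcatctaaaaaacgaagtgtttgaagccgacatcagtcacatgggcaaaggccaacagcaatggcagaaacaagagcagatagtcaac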

How the data were processed

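Paired-end reads were aligned by the authors to hg19 (TopHat2 2.0.11 in the submitters' processing notes, with an Ensembl GRCh37 index), and the deposited values are raw HTSeq counts per gene symbol. The strand setting of the counting is not given in the sources used here, so genes on opposite strands that overlap cannot be told apart. Of all read pairs in the tables, 6.03% to 9.08% fell in no feature, 7.95% to 8.77% were ambiguous and 13.4% to 14.7% were not unique, and these were left out. Depth was 20936091 to 30142144 counts on genes.

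A gene was kept with at least 5 total counts in either group, which gave 22452 genes. METTL3-KO was compared with WT by the quasi-likelihood test of edgeR 4.0.16 in R 4.3.3, two-sided, after TMM scaling, and p-values were Benjamini-Hochberg adjusted over all tested genes. CPM values use TMM-scaled library sizes, except the sums over marker lists, which use the counts on genes without TMM scaling. The SE is the log2 fold change divided by the root of F, and a 95% interval is 1.96 SE on each side. This normal quantile makes the intervals narrower than the quasi-likelihood test itself would. For TRA2B the interval of -0.29 to -0.015 left out 0, while the unadjusted p of that edgeR test was 0.051. The fits were tested on simulated data. Ratios of 10 pairs were compared by exact permutation (scipy 1.17.1). Gene models and transcript words came from a GENCODE annotation on GRCh37, in which 35793 of the 56638 symbols matched.

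Groups and replicate numbers follow the labels, from which the names of the deposited tables differ. Those names carry SiM3 for the METTL3-KO samples. The genes, lists and pairs were chosen with earlier results of these data known. Sample values are given for METTL3, for called genes with an absolute log2 fold change of at least 0.4, for the 3 genes of each role with the smallest p, and for pairs. Up to 3 called genes of each further list are named, and some items are not reported here. Sample values of SRSF2, PTBP1 and RNPS1 were added after they were seen. The alternatives were DESeq2 1.42.0, RLE normalization, filterByExpr, no filter beyond 1 count, a replicate block, leaving out each sample or both samples numbered 3, and a spline correction for transcript length and GC content with 5 degrees of freedom, with and without the block.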

Additional observations from a re-analysis of the deposited data

How the results depend on the processing

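Of the 22 called genes, 22 were called by DESeq2, 21 with RLE normalization, 21 with filterByExpr, 22 with no filter beyond 1 count and 22 with the length and GC correction, in the same direction. Higher calls (4) ran from 1 to 5 and lower calls (18) from 12 to 20 when 1 sample was left out, and higher calls came to 7 without both samples numbered 3. Lower SR protein genes (7) ran from 4 to 7 and their median log2 fold change from -0.31 to -0.24. Lower hnRNP genes (3) ran from 1 to 5, with a median of -0.13 to -0.11, and numbered 5 with filterByExpr, 5 with the length and GC correction and 10 without both samples numbered 3. Of the further splicing genes, higher calls (13) ran from 8 to 18 and lower calls (28) from 14 to 43, and came to 25 and 58 without both samples numbered 3, while the length and GC correction gave 25 higher calls. The sign of PTBP3 reversed without WT replicate 1 (-0.013) and without WT replicate 2 (-0.042), within a leave-one-out range of -0.042 to 0.17. Over all genes, 2986 higher and 2957 lower calls became 4555 and 4823 without both samples numbered 3. The causes were not tested.

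Deviations of same-numbered samples correlated at -0.59, -0.39 and -0.78 across 10336 genes. These deviations followed transcript length, so the correlations cannot show whether same-numbered samples were handled together. The replicate numbers are those of the labels, and the names of the deposited tables number the WT samples differently. With the replicate block 0 genes were higher and 9 lower (SRSF3, SRSF6, SRSF11, TRA2A, CLK4, HNRNPA1, PTBP2, U2AF2 and SF1), 4 of them SR protein and 1 an hnRNP gene, the further splicing genes gave 4 higher and 9 lower calls, and all genes gave 1810 and 1719. The block together with the length and GC correction gave 3 higher and 16 lower genes, and 18 higher and 30 lower further splicing genes.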
